A study of Mus musculus with 48 samples.

Results

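Transcripts of 9 crystallin genes (*Cryaa*, *Cryab*, *Cryba1*, *Cryba2*, *Cryba4*, *Crybb1*, *Crybb2*, *Crybb3* and *Crygs*) were followed through a bulk RNA-seq series of mouse liver spheroids engrafted in the anterior chamber of the eye. The 9 were taken by name from the 46517 genes counted. They were selected on the contrast of explants with irises, in which several of them were lower in explants, so their iris and explant values are given as a description, with no test. The series held 5 explants (engrafted spheroids with the iris tissue around them, dissected at 2 months post-tx), 3 irises without explants, 3 endogenous livers of donor mice, 3 preparations of primary hepatocytes isolated from donor livers and 2 samples of in vitro spheroids made from such hepatocytes. Mice of all groups were labelled wild-type albino C57BL/6N, and the methods of the study describe adults of both sexes and an albino B6/J strain. The explants are mixtures of liver and eye cells, the hepatocyte preparations are enriched and not pure, and the labels do not say whether samples of a group came from separate animals, so p-values measure the spread between these samples. Each sample was sequenced as 3 technical libraries, which were summed to between 2718518 and 6789648 counts a sample.

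Crystallins are the proteins that fill the fibre cells of the eye lens and give it its refractive power. The α-crystallins (*Cryaa*, *Cryab*) are small heat shock proteins that keep other proteins from aggregating, whereas the β-crystallins (*Cryba* and *Crybb* genes) and γ-crystallins (*Cryg* genes, including *Crygs*) are structural proteins of a separate family. *Cryab* differs from the others in that muscle, heart and other tissues express it outside the lens as well. The lens lies directly behind the iris and is removed when an iris is dissected.

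In the irises, 8 of the 9 genes rose and fell in the same order with large differences between samples, and *Cryab* did not. The 8 summed to 439 TPM (a level per exonic base, scaled to the same total in every sample) in iris 1, 617 TPM in iris 2 and 159 TPM in iris 3, a 3.88-fold range among samples of a single group. *Cryab* stood at 1105, 1117 and 1119 TPM in the same irises, a 1.01-fold range. In the explants the 8 summed to 31.1 to 122 TPM, and *Cryab* to 771 to 853 TPM. Within the explants, *Cryba4* and *Crybb1* parted from the other 6 lens genes, and that split is described further on.

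The genes lie on 6 chromosomes, and 4 of them are on chromosome 5 (GRCm38, positions of the annotation in the count files). *Cryba4* (112246493 to 112252518, minus strand) and *Crybb1* (112255815 to 112269585, plus strand) are neighbours with 3296 bases between them, transcribed away from each other. *Crybb2* (113058258 to 113070117) and *Crybb3* (113075839 to 113081584), both on the minus strand, also lie side by side. *Cryaa* is on chromosome 17 (31677933 to 31681722), *Cryab* on chromosome 9 (50752758 to 50756633), *Cryba1* on chromosome 11 (77718615 to 77725283), *Cryba2* on chromosome 1 (74889934 to 74893143) and *Crygs* on chromosome 16 (22805203 to 22811410). No exon base of a member is shared with another gene of that annotation. The spans of *Cryba1* and *Crybb2* overlap *Nufip2* and *Gm43247* on the opposite strand, with 0 exonic bases in common.

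The promoters of 8 of the 9 genes were at hand from RefSeq (GRCm38.p6); *Cryab* had no entry. They are shown because the 8 differ in how they moved between explants. Large Maf proteins, which drive crystallin genes in lens cells, bind elements built from the half-site TGCTGA, and TATAAA is the core of a TATA box. In the 250 bases before the start, TGCTGA on either strand (reverse complement TCAGCA) occurred in 7 of the 8, all but *Crybb2*, and in 16.1% of all 32851 promoters of the same length. TATAAA on either strand occurred in 3 of the 8 (*Cryba1*, *Crybb1*, *Crygs*) and in 12.4% of all promoters, and the heat shock motif GAANNTTC in 0 of the 8 and in 6.69% of all. The last 100 bases before the start are given for *Cryaa* (chr17:31677831-31677930, plus strand) and *Cryba1* (chr11:77725294-77725393, minus strand), whose explant levels were highest in explants 1 and 4, and for *Cryba4* (chr5:112252519-112252618, minus strand) and *Crybb1* (chr5:112255720-112255819, plus strand), which were highest in explants 2 and 6, with TGCTGA or its complement and TATAAA in capitals.
*Cryaa*: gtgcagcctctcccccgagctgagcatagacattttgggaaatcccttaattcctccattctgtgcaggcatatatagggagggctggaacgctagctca
*Cryba1*: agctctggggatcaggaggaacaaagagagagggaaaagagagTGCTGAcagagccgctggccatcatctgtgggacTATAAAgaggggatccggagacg
*Cryba4*: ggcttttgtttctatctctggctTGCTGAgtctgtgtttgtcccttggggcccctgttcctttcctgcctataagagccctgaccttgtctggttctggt
*Crybb1*: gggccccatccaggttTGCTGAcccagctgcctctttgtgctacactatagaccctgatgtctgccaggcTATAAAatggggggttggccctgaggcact
Within these 100 bases the half-site stood in *Cryba4*, in *Crybb1* and in 2 of the other 6 genes (*Cryba1* and *Crybb3*), and was not found in *Cryaa*, *Cryba2*, *Crybb2* or *Crygs*. In the 250 bases only *Crybb2* lacked the half-site. For the last 100 bases no share over all promoters was taken, so with 8 promoters this count is a description and was not tested.

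*Cryaa*, the α-crystallin that is largely confined to the lens, was the highest of the 8. It stood at 204, 304 and 78.8 TPM in irises 1, 2 and 3 (404, 561 and 154 counts). In explants 1, 2, 4, 5 and 6 it stood at 58.3, 5.18, 58.0, 7.94 and 2.82 TPM (127, 12, 141, 22 and 7 counts). Every explant was below every iris, and explants 1 and 4 were at 29.8% and 29.7% of the iris mean while the others were between 1.44% and 4.06%. Livers, hepatocyte preparations and in vitro spheroids held 0 to 3 counts a sample, at most 1.92 TPM.

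*Crygs*, the γ-crystallin of the adult lens cortex, was the next highest, with 66.1, 77.1 and 31.7 TPM in the 3 irises. Its explant values of 17.7, 3.61, 14.5, 8.47 and 3.38 TPM were all below those of the irises. The counts behind them were small, from 5 to 23 in explants and from 37 to 85 in irises. It was listed at 0 in all 3 hepatocyte preparations and both in vitro spheroid samples, at least 52.0-fold and at least 35-fold below the irises when 3 counts over the group are taken as the limit. Livers held 1 to 3 counts.

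The β-crystallins *Cryba1*, *Crybb2* and *Cryba2* were all highest in explants 1 and 4, then 5, among the explants, and lowest in explants 2 and 6. *Cryba1* stood at 46.3, 64.0 and 12.2 TPM in irises and at 13.3, 1.28, 9.80, 4.03 and 2.40 TPM in explants. *Crybb2*, the most abundant β-crystallin of the mature lens, stood at 47.7, 61.9 and 10.9 TPM in irises and at 11.4, 0.763, 10.7, 2.77 and 1.43 TPM in explants. *Cryba2* stood at 28.7, 29.1 and 8.64 TPM in irises and at 7.76, 0.429, 4.09, 1.44 and 0.401 TPM in explants. For *Cryba1* and *Crybb2* explant 1 lay just above iris 3, so the groups overlapped, and for *Cryba2* they did not. In the 3 liver-derived groups these genes had at most 6 counts in a sample.

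*Crybb3* was the lowest of the 8 in irises (3.86, 9.08 and 2.08 TPM) and the only member that did not pass the filter on low counts in the comparison of explants with irises. Its explant values were 0.933, 0.658, 2.30, 2.02 and 0.410 TPM, from 2 to 11 counts, and their order (explant 4, then 5, then 1) was not that of the other lens crystallins. Unlike the other lens crystallins it was not near 0 elsewhere relative to its iris level. Livers held 14 counts in all, which is 27.9% of the iris level (exact 95% counting interval 14.3 to 50.7), and hepatocyte preparations 18 counts, 41.2% of it (22.8 to 71.2). At 0.326 to 2.72 TPM in single liver-derived samples, these levels overlapped the range of the explants.

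**Figure D1:**
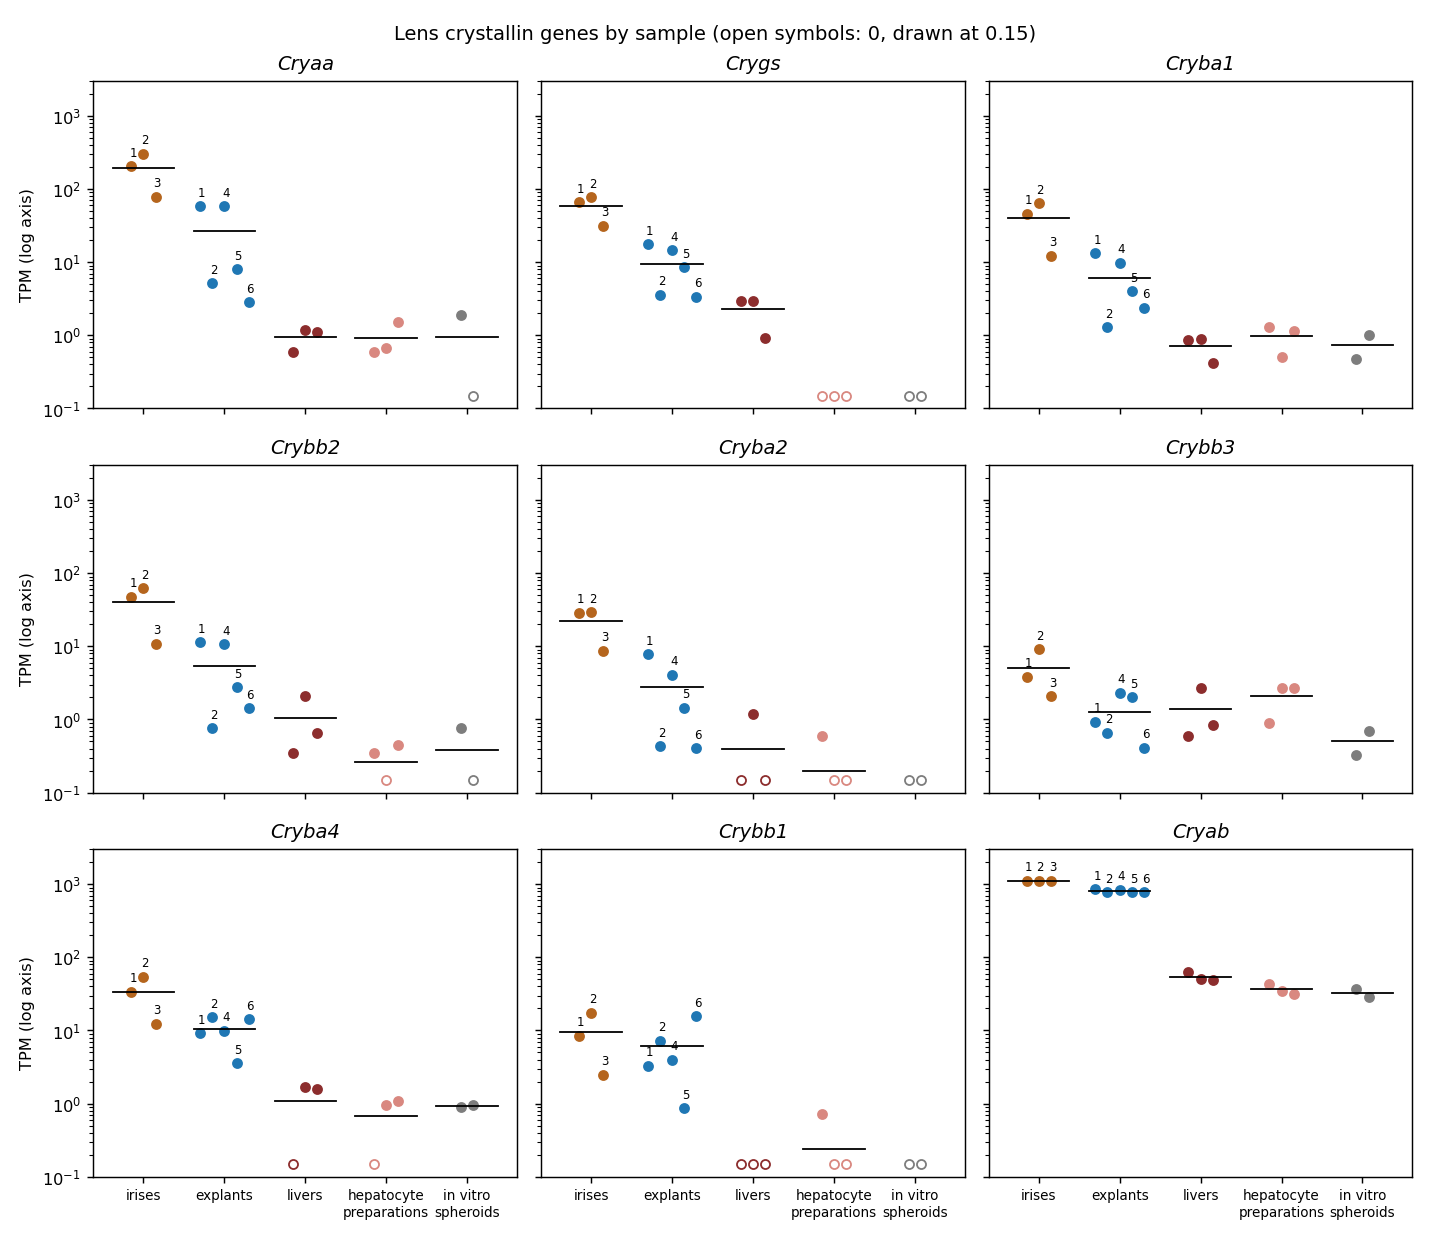
TPM of the 9 crystallin genes by sample on a log axis, with a bar for the group mean and replicate numbers beside the iris and explant points (3 irises, 5 explants, 3 livers, 3 hepatocyte preparations, 2 in vitro spheroid samples). For *Cryaa* the irises span 78.8 to 304 TPM and explants 1 and 4 lie at 58.3 and 58.0 TPM with the others at 2.82 to 7.94 TPM, whereas the irises of *Cryab* lie at 1105 to 1119 TPM and the explants at 771 to 853 TPM.

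The spread among irises was large for this depth. Iris 2 was the highest and iris 3 the lowest for all 8 genes, with highest-to-lowest ratios of 2.43 (*Crygs*) to 7.14 (*Crybb1*). Over the 16764 genes that passed the filter, the median ratio was 1.22 and the median coefficient of variation over irises was 10.2%. That of *Cryaa* was 57.6%, larger than in 99.5% of the 5602 genes with a mean iris count within 2 times its own. *Cryab* had 0.665%, smaller than in all but 2.77% of the 721 genes near its count. The members were chosen with earlier results of these data known, so these ranks are a description and not an independent result. With 3 irises the spread is a coarse estimate, and the ratios for *Crybb1* and *Crybb3* rest on 4 and 8 counts in iris 3.

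The spread was larger between irises than between technical libraries of an iris. The sum of the 8 was 426, 463 and 431 TPM in the 3 libraries of iris 1, 593, 598 and 662 TPM in those of iris 2 and 179, 132 and 164 TPM in those of iris 3. In explants 1 and 4 the libraries gave 88.8 to 151 TPM, and in explants 2, 5 and 6 they gave 28.4 to 42.1 TPM. No library of explants 1 and 4 overlapped those of explants 2, 5 and 6, although the 5 explants are samples of 1 group and no label separates them.

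Relative to the iris mean, the 8 together stood at 30.1%, 8.51%, 27.95%, 7.68% and 10.03% in explants 1, 2, 4, 5 and 6. The log2 ratio of the group means was −2.57. All explants were below all irises for the sum, and for 4 of the 8 members that passed the filter, *Cryab* included. This pattern chose the members, and 14.1% of all genes tested had every explant below every iris, so nothing is read from that count. In bulk samples, fewer cells of a type and less RNA per cell cannot be told apart.

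The make-up of the crystallin pool, which the choice of genes did not fix, was alike in 5 of the 8 eye samples when judged by *Cryaa*. It made up 51.5%, 55.7% and 54.6% of the TPM of the 6 genes without *Cryba4* and *Crybb1* in irises 1, 2 and 3, and 53.3% and 58.4% in explants 1 and 4. It was 43.4%, 29.8% and 26.1% in explants 2, 5 and 6, where the 6 genes had 28, 79 and 29 counts. Of these, 12, 22 and 7 were *Cryaa* counts, so the lower shares rest on few counts and were not tested. *Crygs* was less even among irises 1, 2 and 3, at 15.05%, 12.5% and 19.9% of the TPM of the 8 genes. The share of *Cryaa* was thus within 51.5% to 58.4% in irises that differed 3.78-fold in the sum of the 6 genes and in the 2 explants with the highest sums, and lower in the 3 explants with the lowest.

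*Cryba4* and *Crybb1* broke that pattern, and they were singled out after their values had been seen. *Cryba4* stood at 33.7, 54.4 and 12.3 TPM in irises and at 9.09, 15.3, 9.90, 3.58 and 14.3 TPM in explants 1, 2, 4, 5 and 6. *Crybb1* stood at 8.53, 17.6 and 2.46 TPM in irises and at 3.32, 7.27, 3.96, 0.870 and 15.5 TPM in explants. Both were highest in explants 2 and 6, the samples in which the other 6 summed to 11.9 and 10.8 TPM, their lowest values. *Crybb1* in explant 6 was at 163% of the iris mean, while *Cryaa* in the same sample was at 1.44%.

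As a share of all counts of the 8 genes, the pair made up 6.79% (exact 95% interval 5.24 to 8.64), 8.28% (6.77 to 9.99) and 6.89% (4.31 to 10.3) in irises 1, 2 and 3. Explants 1, 4 and 5 gave 7.35% (4.55 to 11.1), 8.80% (5.78 to 12.7) and 10.2% (4.78 to 18.5). In explant 2 the pair made up 58.2% (45.5 to 70.2; 39 of 67 counts), and in explant 6 it made up 66.3% (55.3 to 76.1; 57 of 86 counts). The intervals of explants 2 and 6 overlap each other and none of the other 6 samples. They cover counting error only. *Crybb1* was present in all 3 technical libraries of explant 6 (9, 11 and 12 counts) and of explant 2 (9, 4 and 1 counts).

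**Figure D2:**
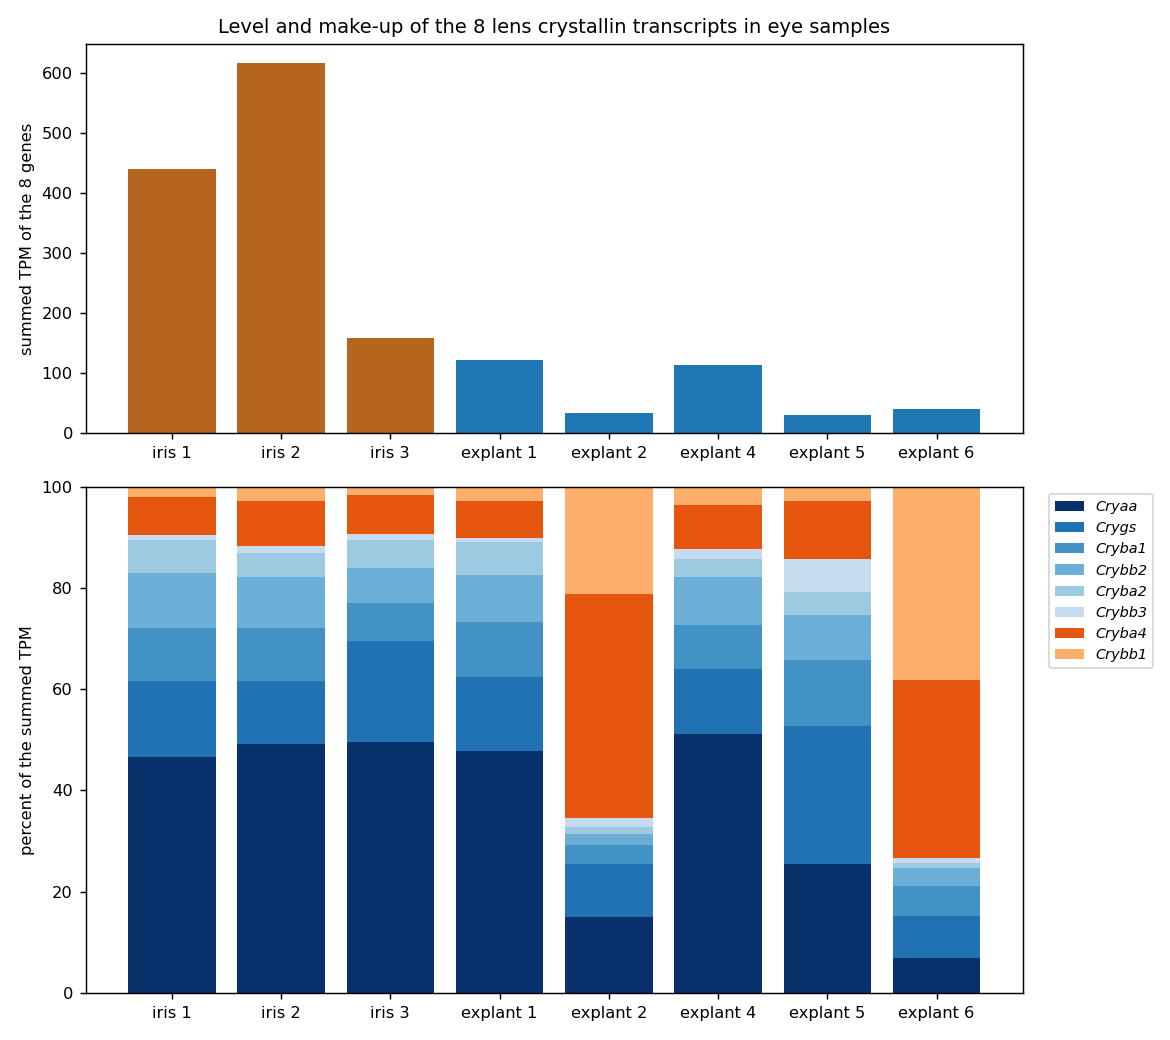
Upper bars give the summed TPM of the 8 lens crystallin genes without *Cryab* in 3 irises and 5 explants, and lower bars the percentage each gene contributes to that sum. *Cryba4* and *Crybb1* (orange) contribute 9.29% to 14.3% in 6 samples but 65.4% in explant 2 and 73.3% in explant 6.

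Explants 2 and 6 also had the highest levels of macrophage genes, a list of 12 (such as *Adgre1*, *Csf1r* and *C1qa*) added after the values had been seen. Their summed level was 698 to 729 TPM in irises and 1143, 2245, 874, 1479 and 2851 TPM in explants 1, 2, 4, 5 and 6, with 0 of the 12 at 0 TPM in any sample. *Adgre1*, which encodes the F4/80 antigen, stood at 17.6, 22.4 and 19.4 TPM in irises and at 42.4, 118, 41.95, 62.7 and 153 TPM in explants. With edgeR's quasi-likelihood test and Benjamini-Hochberg adjustment, 7 of the 12 were called higher in explants than in irises, where 6.16% of all genes were. DESeq2 called 9 of them higher, and limma-voom called 0 (8 at an unadjusted p under 0.05). The order of explants differs between the sets, since explant 5 was the third for macrophage genes and the lowest for *Cryba4* and *Crybb1*. In livers, whose macrophage genes summed to 521 to 1051 TPM, *Crybb1* had 0 counts in all 3 samples, at least 13.5-fold below the irises, and *Cryba4* had 0 to 2 counts. Hepatocyte genes (10, led by *Alb* and *Apoa1*) were also highest in explants 2 and 6, which had the lowest shares of iris in the authors' correction. They summed to 4957, 6463, 5014, 5180 and 6965 TPM in explants 1, 2, 4, 5 and 6 and to 1406 to 1674 TPM in irises, with 0 of the 10 at 0 TPM in any sample. All 10 were called higher in explants by edgeR and by DESeq2, and 9 by limma-voom. Hepatocyte preparations and in vitro spheroids, at 12156 to 15426 TPM for these genes, held 0 to 1 counts of *Crybb1* and of *Cryba4* a sample. The part of macrophages or of liver cells in the levels of *Cryba4* and *Crybb1* was not tested.

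Genes of lens fibres and lens epithelium other than crystallins, a list of 20, fell into separate sets in the irises. *Bfsp2*, a beaded filament protein of lens fibres, stood at 382, 387 and 383 TPM in irises and at 249 to 328 TPM in explants. *Hsf4*, a lens transcription factor, stood at 111 to 131 TPM in irises and at 17.3 to 29.8 TPM in livers. *Hopx*, *Tdrd7* and *Slc16a12* stood at 84.7 to 102, 33.9 to 44.75 and 31.9 to 38.8 TPM in irises. In livers the same genes stood at 52.85 to 125, 21.5 to 31.2 and 69.5 to 81.9 TPM. Their iris levels are thus not a measure of lens tissue alone. Other genes of the list had wider ranges among irises, relative to their level. *Lgsn* (lengsin) stood at 3.72, 11.9 and 0.940 TPM and *Grifin* (a lens galectin) at 2.94, 11.5 and 3.96 TPM. *Mip* (the lens fibre water channel) stood at 2.24, 2.10 and 0.566 TPM and *Lim2* at 1.65, 3.53 and 0 TPM. *Foxe3* and *Pitx3*, factors of the lens epithelium, were listed at 0 in all irises. Of the list, 8 genes passed the filter and edgeR called 0 lower in explants (1, *Bfsp2*, at an unadjusted p under 0.05, with a log2 fold change of −0.36 and an adjusted p of 0.00973), beside 0.316% of all genes. DESeq2 called 1, *Lgsn* (log2 fold change −3.71, adjusted p = 0.00607), which edgeR's filter had removed, and limma-voom called 0. edgeR called *Dnase2b* (log2 fold change 4.22, adjusted p = 0.000862) and *Prox1* (1.86, adjusted p = 0.0449) higher, beside 6.16% of all genes. Of the list, DESeq2 called 2 higher and limma-voom called 1. Both *Dnase2b* and *Prox1* are also expressed in liver, *Prox1* as a factor of hepatocytes.

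Of the 14 crystallin genes outside the 9, the γ-crystallin genes other than *Crygn* were low. *Crygb* stood at 3.79, 26.3 and 2.87 TPM and *Crygc* at 1.53, 23.7 and 3.86 TPM in irises 1, 2 and 3, and both were at most 2.31 TPM in every explant. *Cryge* and *Crygf*, which are close copies, were listed at 0 in all eye samples. *Crygn* had an iris mean of 92.7 TPM and a liver mean of 31.3 TPM. The remaining ones are enzymes or relatives that many tissues express. *Cryz* stood at 49.7 to 50.9 TPM in irises and 80.2 to 97.5 TPM in livers, and *Cryzl1* and *Cryl1* had iris means of 87.7 and 98.2 TPM. edgeR called 0 of the 8 that passed the filter in either direction between explants and irises (1 at an unadjusted p under 0.05), where 6.47% of all genes were called, DESeq2 called 2 of 14 lower and limma-voom called 0.

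A search over all genes with at least 1 TPM in irises asked which followed the sum of the 8 lens crystallins most closely, by the SD over the 8 eye samples of the log2 ratio of gene to sum. Among 20448 genes the first was *Lgsn* (SD 0.479), and *Mip* (0.801), *Lim2* (0.878) and *Grifin* (0.882) were in the first 10, so 4 of the 10 were lens genes on the list above. The first 10 also held *ENSMUSG00000004613*, which spans the same stretch of chromosome 7 as *Lim2*, the predicted genes *Gm23094*, *Gm14221*, *Gm43531* and *Gm16342*, and *Klrb1-ps1*. The median over all genes compared was 1.59. All 10 had iris means under 7 TPM, so a few counts set these values. The measure also takes in the fall from irises to explants that chose the members, so the ranking is not independent of that choice. Among the 8 themselves, the SD against the sum of the other 7 was 0.508 for *Cryba1* and 1.84 for *Crybb1*.

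Other eye tissues were read by their own genes. Cornea and conjunctiva genes (9, led by keratins) summed to 164, 273 and 451 TPM in irises and to 737, 415, 2411, 94.4 and 551 TPM in explants. Iris 3 was the highest for them and the lowest for the 8 lens crystallins. Ciliary body epithelium genes (10, led by *Gja1*) summed to 2399, 2380 and 2266 TPM in irises and to 2289, 2062, 2192, 2165 and 1770 TPM in explants. Of these, edgeR called 1 higher in explants, *Cp* (ceruloplasmin, which liver also makes; log2 fold change 1.05, adjusted p = 0.00806), and 0 lower (2 at an unadjusted p under 0.05). DESeq2 and limma-voom also called 1 higher and 0 lower. Iris pigment and stroma genes (12) summed to 10464 to 10965 TPM in irises, a narrow range, and to 89.7%, 74.7%, 81.9%, 70.6% and 70.7% of the iris mean in explants 1, 2, 4, 5 and 6. Explants 1 and 4 were thus the highest both for these genes and for the crystallins, but over a range of 70.6% to 89.7% for the former and of 7.68% to 30.1% for the latter. Whether lens cells carried over at dissection set the crystallin levels was not tested.

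**Figure D3:**
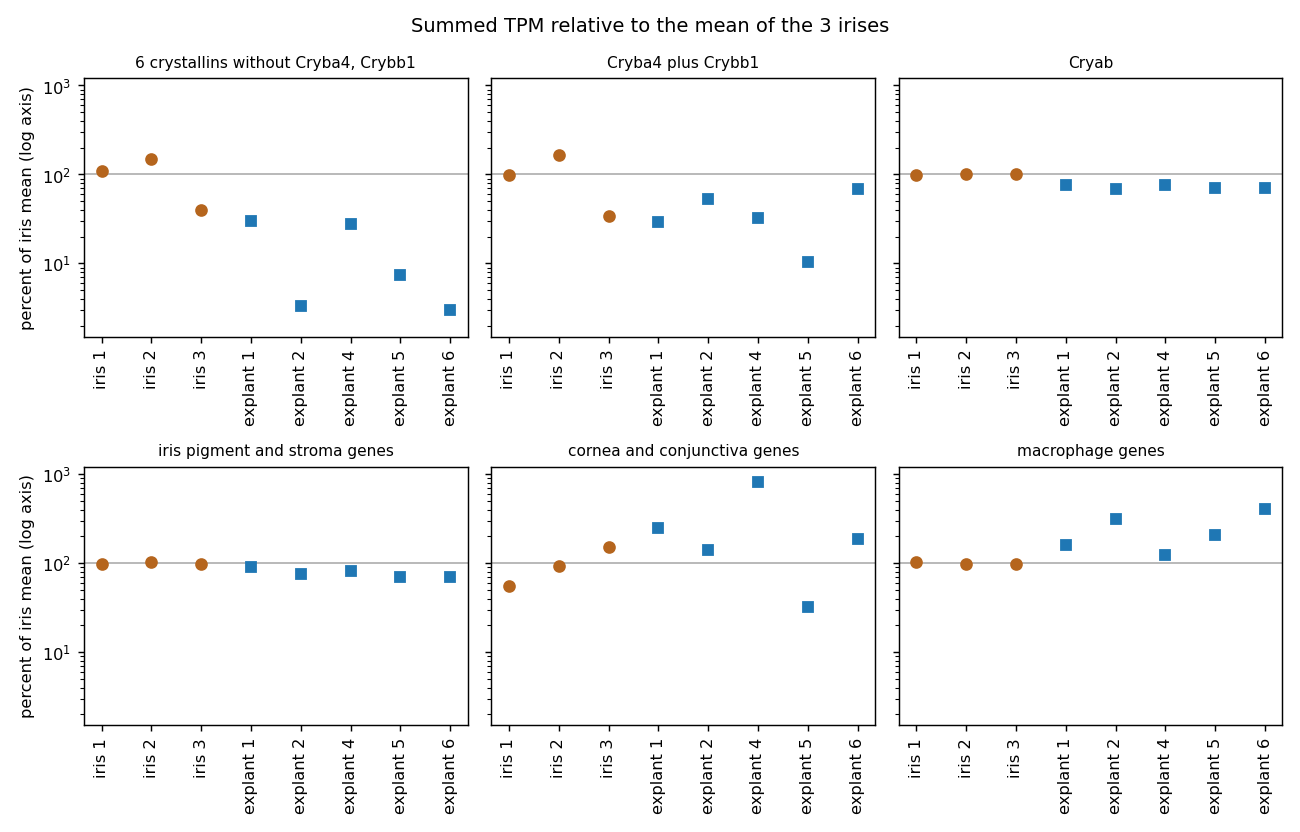
Summed TPM of each gene set as a percentage of the mean of the 3 irises, on a log axis, for 3 irises (circles) and 5 explants (squares); the line marks 100%. The 6 crystallins run from 2.99% in explant 6 to 30.2% in explant 1, *Cryab* and the pigment genes stay between 69.2% and 89.7% in explants, and cornea and macrophage genes each have their own order.

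*Cryab* encodes αB-crystallin, the small heat shock protein that chaperones desmin and other filaments in muscle cells. It stood at 853, 771, 843, 777 and 775 TPM in explants 1, 2, 4, 5 and 6, or 76.6%, 69.2%, 75.7%, 69.8% and 69.5% of the iris mean of 1114 ± 7.41 TPM (SD, n = 3). Every explant was below every iris, and the log2 ratio of means was −0.47. Explants differed by at most 1.11-fold, in contrast to 20.7-fold for *Cryaa*. Pigment and stroma genes as a group had a median of 78.3% of the iris mean over explants (range 69.3% to 96.0%), and muscle genes had 87.1% (73.2% to 123%).

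The genes whose level over all 16 samples was most like that of *Cryab*, by the same kind of SD, were *Ldhb* (0.187), *Tmem231* (0.191), *Zfp651* (0.196), *Tagln* (0.196) and *Nfatc4* (0.205), of 14440 compared, with a median of 1.87. *Tagln* encodes transgelin, an actin-binding protein of smooth muscle. None of the 5 is a lens gene of the list. *Hspb2*, the small heat shock gene that lies head to head with *Cryab* on chromosome 9, stood at 137, 113 and 131 TPM in irises and at 73.2 to 97.9 TPM in explants. Its fall in explants, by 0.49 on the log2 scale (edgeR adjusted p = 0.0371), was under the fold limit of a call. Of the 8 other small heat shock protein genes, 5 passed the filter and edgeR, DESeq2 and limma-voom called 0 in either direction (2 lower at an unadjusted p under 0.05 by each). *Hspb8* had 515 ± 19.6 TPM (n = 3) in irises and 438 ± 17.6 TPM (n = 3) in livers, where *Cryab* had 1114 and 53.7 TPM.

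Outside the eye *Cryab* was low but counted in every sample, and only here was a member tested, since these groups had no part in the choice of genes. Livers had 62.3, 49.9 and 49.0 TPM (106, 84 and 88 counts), hepatocyte preparations 42.5, 34.9 and 31.9 TPM (72, 52 and 42 counts) and in vitro spheroids 36.6 and 28.5 TPM (57 and 42 counts). All livers lay above all hepatocyte preparations, an order that 22.5% of genes tested had, and above both spheroid samples, as 25.9% of genes did in that comparison. Hepatocyte preparations and spheroids overlapped. It was the only member that passed the filter in these comparisons.

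Against livers, *Cryab* in hepatocyte preparations had a log2 fold change of −0.42 ± 0.19 (SE; edgeR adjusted p = 0.221), where 2.72% of genes were called. In vitro spheroids against hepatocyte preparations had −0.50 ± 0.26 (adjusted p = 0.190; 17.2% of genes called), and in vitro spheroids against livers had −0.85 ± 0.25 (adjusted p = 0.0359; 19.2% called), under the fold limit. No difference was thus called, and that does not show that the groups are alike. The last p rose to 0.0760 to 0.115 when any single sample was left out, and was 0.0545 with DESeq2.

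These liver levels have to be read beside genes that liver should lack. *Cryab* in livers was 4.82% of its iris mean, in hepatocyte preparations 3.27% and in in vitro spheroids 2.92%. In livers, melanosome genes were found at like shares: *Tyrp1* stood at 4.20% of its iris mean, *Mlana* at 5.31%, *Pmel* at 6.59% and *Dct* at 8.35%. The 4 were the pigment genes with over 0.4 counts per base and library in irises. The other 8 pigment and stroma genes stood at 0.936% to 2.22% in livers. In hepatocyte preparations the 4 stood at 4.45% to 8.86% and the other 8 at 0% to 1.97%. In in vitro spheroids the 4 stood at 3.72% to 7.1% and the other 8 at 0.755% to 3.73%. *Cryab* was thus below all 4 in hepatocyte preparations and in vitro spheroids. *Cryab* had 0.603 counts per base. Duplicate removal can hold down genes with many counts per base (the highest had 1.70), which can raise the apparent share. Of 25 genes within 1.25 times the density of *Cryab*, 6 had a lower share in livers, from 1.51% (*Tspan10*) to 3.34% (*Dkk3*), and *Tagln* stood at 5.21%. *Hspb2* was at 2.16%. Whether liver cells made the *Cryab* transcripts was not tested, and the comparisons among liver-derived groups hold for the level found, whatever its source.

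**Figure D4:**
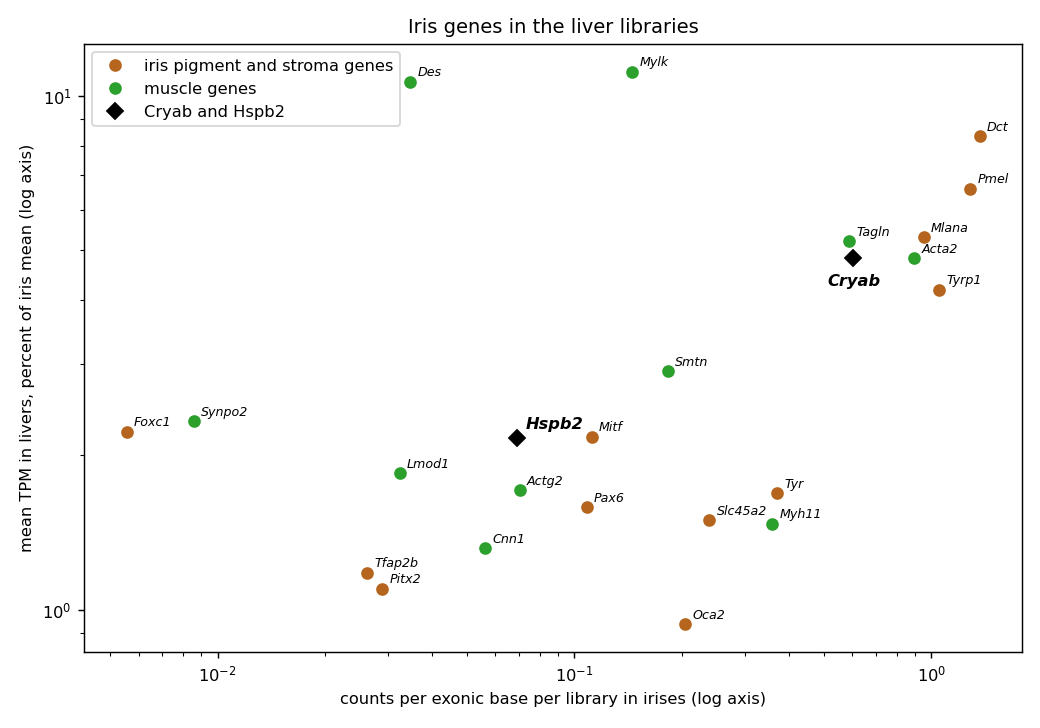
Mean TPM in 3 livers as a percentage of the mean in 3 irises, against counts per exonic base and library in irises, both on log axes, for 12 iris pigment and stroma genes, 10 muscle genes, *Cryab* and *Hspb2*. *Cryab* at 4.82% lies among *Tagln*, *Mlana*, *Acta2* and *Tyrp1* (4.20% to 5.31%), which have 0.588 to 1.05 counts per base.

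A second deposited table holds TPM after iris signal was subtracted from the explants, and it lists only *Cryab* and *Crybb1* of the 9. Solving its values for the share of iris taken away gave 82%, 68%, 81%, 72% and 59% for explants 1, 2, 4, 5 and 6. For explants other than explant 4 the iris mean was multiplied by the share, and for explant 4 the values were returned only with the share, as a fraction, subtracted from the iris mean. Negative results were set to 0. *Cryab* was left at 0, 42.5, 0, 0 and 286 TPM, positive only in the explants whose level relative to iris (69.2% and 69.5%) exceeded their share. *Crybb1* was left at 0, 2.48, 0, 0 and 24.2 TPM, again positive in explants 2 and 6. The corrected 286 TPM of *Cryab* in explant 6 compares with 49.0 to 62.3 TPM in livers, and the corrected range over explants was far wider than the 771 to 853 TPM measured before it.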

How the data were processed

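RNA was measured by Smart-seq3 bulk RNA-seq in 16 samples of 3 technical libraries each. Per the labels and file headers, the authors aligned reads to mm10 with TopHat2, removed duplicates and counted exon reads per gene with featureCounts v1.4.6-p5, giving reads that overlap several genes to each of them and using no strand option. The deposited counts per sample equalled the sums of the library counts. The deposited TPM before correction equalled counts per exonic base scaled to 1 fixed total in each sample. The authors' TPM after subtraction of iris signal is a rescaled score and was read for 2 members only. The processed data files with ERCC controls held 418 control counts, left out of tests.

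Members and gene lists were chosen with earlier results of these data known, and the macrophage list after values were seen. Comparisons used the edgeR 4.0.16 quasi-likelihood test (TMM, filterByExpr, Benjamini-Hochberg over all genes tested); a gene was called at an adjusted p below 0.05 if its log2 fold change also exceeded 1 in size. edgeR's approximate SE is given. The test was checked on simulated data. Alternatives were DESeq2 1.42.0, limma-voom 3.58.1, RLE size factors, no filter, 1 library per sample, all 5 groups in 1 fit, a replicate block and leaving out each sample. Named genes were all members, the 5 highest in irises of each list (by all 16 samples for hepatocyte and other crystallin genes), called genes of lists with 5 calls or fewer, the 10 most like the lens sum (pseudocount 0.5) and the 5 most like *Cryab* (pseudocount 1, at least 5 TPM in irises). *Adgre1*, *Foxe3*, *Pitx3*, *Crygb*, *Crygc*, *Cryge*, *Crygf*, *Hspb2*, *Tspan10* and *Dkk3* were named after their values were seen. In these eye samples 1 count is 0.184 to 0.907 TPM for a member, and intervals and the limit of 3 counts cover counting error only. A further gene list is not reported here.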

Additional observations from a re-analysis of the deposited data

Results flagged for a closer look

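The summed level of the 9 cornea and conjunctiva genes was 2411 TPM in explant 4, set apart from the other explants (gap over range 0.722, above the 0.71 that Dixon's test allows for 5 samples). The crystallin genes of explant 4 did not stand apart in this way. The test was applied to 21 values, from members and lists, and chance alone sets off about 1 in 20.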

How the results depend on the processing

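The log2 ratio of explants to irises for the sum of the 8 lens crystallins (−2.57) ran from −3.43 to −2.13 over 14 alternatives. That of *Cryab* (−0.47) ran from −0.52 to −0.45 over 13. Without *Cryba4* and *Crybb1*, or with the limit that duplicate removal sets undone for *Cryab*, both chosen after seeing the data, they were −2.81 and −0.51. For the sum and for *Cryab* every explant was below every iris, and this contrast led to the choice of genes. Leaving out samples could therefore not reverse the direction, and nothing is read from its being kept. The 3.88-fold range of irises ran from 1.404 (without iris 3) to 3.88 as each iris was left out. *Cryab* was called in none of the alternative fits of the 3 liver-derived comparisons. Relative to the median of the iris pigment and stroma genes (an alternative added after seeing the data, 9 of 12 measured), its log2 fold change was −0.58 in hepatocyte preparations against livers, 0.014 in in vitro spheroids against hepatocyte preparations and −0.60 in in vitro spheroids against livers; the cause was not tested. The count of lens genes called lower in explants was 1 (*Lgsn*) in place of 0 with no filter, with DESeq2, with all 5 groups in 1 fit and without iris 3, and 0 to 1 as samples were left out; without a filter or with DESeq2 more genes of the list were tested (19 against 8).

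Replicate numbers were not used to pair samples in the main fits. Correlations of same-numbered deviations from group means were −0.107 to 0.191. They were all over 0.1 only for in vitro spheroids against hepatocyte preparations (0.103 and 0.136). With so few samples a group, these values cannot tell whether same-numbered samples shared a donor. With the number as a replicate block, the 3 *Cryab* comparisons gave −0.42, −0.53 and −0.91 (adjusted p = 0.256, 0.338 and 0.0731) and the lens count was 0, so the block changed no call. With all 5 groups in 1 fit the adjusted p were 0.0777, 0.0177 and 0.000224, at folds still under the limit. Values under about 10 counts, as for *Crybb1* and *Crybb3*, limit what these libraries can show.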
